A study of Homo sapiens with 8 samples.

Results

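The apolipoprotein L family was followed in BE(2)-M17, a human neuroblastoma cell line, with and without interferon-γ (IFN-γ). The members were the 6 genes APOL1 to APOL6, taken by gene symbol from the 26372 symbols of the expression table, and all 6 had a row. 4 libraries came from M17 cells given IFN-γ at 10 ng/ml for 24 h, and 4 came from untreated M17 cells, with no other treatment or genetic change named in the labels for either group. Each library was made from total RNA depleted of ribosomal RNA and read as pairs of 150 nt, and the values are FPKM, in which a gene's fragments are divided by transcript length and by library total. Separate cultures are not named in the labels, so the spread behind every p-value is that of these libraries and may be technical only. All 8 libraries are of 1 cell line.

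Apolipoprotein L proteins are membrane-active proteins. APOL1 carries a signal peptide and circulates on high-density lipoprotein, where it forms channels in the membranes of African trypanosomes, and the other members are mostly intracellular. APOL3 acts in IFN-γ-stimulated human cells with the guanylate-binding proteins and dissolves the membranes of cytosolic bacteria. Higher transcript levels of some members have been described in post-mortem prefrontal cortex in schizophrenia, and the series title names both that disorder and the neuronal interferon response.

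The 6 genes lie within 619 kb of chromosome 22 in GENCODE release 29 (GRCh38, also called hg38). APOL6 (35648395 to 35668409) and APOL5 (35717872 to 35729483) lie on the forward strand, 49.5 kb apart. The other members follow after 411 kb that hold RBFOX2 as the only protein-coding gene. APOL3 (36140330 to 36166177), APOL4 (36189124 to 36204840) and APOL2 (36226203 to 36239954) lie on the reverse strand, and APOL1 (36253010 to 36267530) lies on the forward strand, so that APOL2 and APOL1 face away from each other across 13.1 kb. This group of 4 spans 127 kb. No other gene in that annotation overlaps any of the 6 on either strand. The members have 1 annotated transcript each for APOL6 (10121 nt) and APOL5 (1438 nt), and 9 to 21 for the others, of which the longest coding ones are 2685 to 3626 nt. Although the genes are related, no stretch of 75 nt was common to the annotated transcripts of any pair of members. Stretches found in transcripts of genes outside the family made up 0.742% of those of APOL1, 0.106% of APOL2 and 0.0199% of APOL6, and none of APOL3, APOL4 or APOL5.

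Low FPKM values fall on steps set by single fragments, and from these steps 1 fragment on a transcript of 1 kb was worth 0.0490 to 0.0705 FPKM. This puts the totals by which the FPKM were divided at about 14.2 to 20.4 M fragments. Those totals may differ from the sequenced ones, as the scaling between libraries is not stated. For a member of the family 1 fragment was worth from 0.00484 FPKM for the long APOL6 transcript to 0.0490 FPKM for the short APOL5 transcript. The test was limma on log2(FPKM + 0.1) for the 13598 genes that averaged 0.5 FPKM or more, of which 13.3% were higher and 9.05% lower with IFN-γ at an adjusted p of 0.05. That split, 1809 higher and 1230 lower, moved with scaling: it was 1470 and 2564 after quantile normalization, 1201 and 1752 in TPM without short RNA genes, and 9536 and 19 in TPM. IFN-γ replicate 4 was unlike the rest of its group: its pairs differed by 4.22 to 5.22 times the counting variance, and the 9 other pairs within a group by 1.65 to 2.61 times. Of 10 markers of the noradrenergic neuroblastoma line, 9 passed the filter, among them HAND2 at 297 ± 4.82 FPKM with IFN-γ and 307 ± 2.62 FPKM untreated.

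With IFN-γ, APOL1, APOL2, APOL3, APOL4 and APOL6 all rose, and they stood between 23.1 and 128 FPKM in every treated library. In untreated cells APOL2 alone was above 1 FPKM, and APOL1, APOL3, APOL4 and APOL6 were each below 0.1 FPKM in every library. APOL5 was low in both groups. All 5 called members had 4 of 4 IFN-γ libraries above all 4 untreated ones, an arrangement seen in 15.4% of tested genes. APOL1, APOL3, APOL4 and APOL6 passed the filter on low values through the IFN-γ group alone, so the count of 5 called among 5 tested is not evidence about the family. As the RNA is from bulk cultures, more cells making a transcript and more transcript per cell cannot be told apart.

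**Figure D1:**
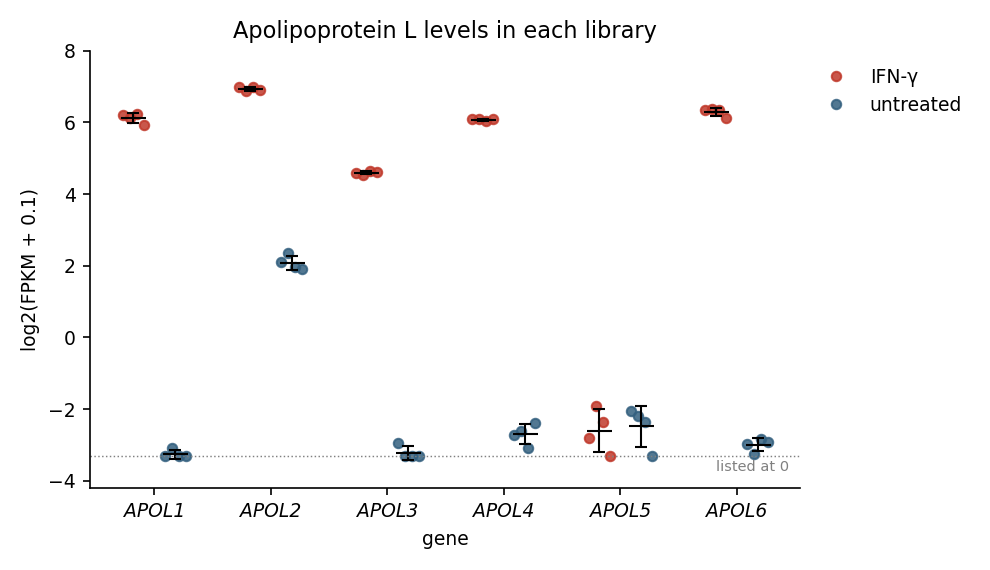
Level of each apolipoprotein L gene in each library on the log2(FPKM + 0.1) scale; points are libraries (IFN-γ left of untreated), black marks are the mean ± SD of 4. The IFN-γ libraries lie above the untreated ones for all genes but APOL5, and APOL2 is the member with an untreated level above 1 FPKM.

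APOL1, the secreted trypanosome lytic protein, had 74.2, 69.9, 75.5 and 61.1 FPKM in the 4 IFN-γ libraries. In untreated cells it was listed at 0 in replicates 1, 3 and 4 and at 0.0183 FPKM in replicate 2, which is about 1 fragment. The groups did not overlap, and replicate 4 was the lowest of the IFN-γ libraries. The mean was 70.2 ± 6.52 FPKM with IFN-γ (SD, n = 4), and the change on the log2(FPKM + 0.1) scale was 9.39 (SE 0.10, limma adjusted p = 1.1e-12). That value depends on the pseudocount, as the untreated level is at the limit of detection, and no fold is given. By the longest coding transcript the IFN-γ values stand for about 2974 to 4226 fragments per library.

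APOL2 lies beside APOL1 on the other strand and lacks a signal peptide. It had 128, 117, 126 and 120.5 FPKM with IFN-γ and 4.17, 5.01, 3.81 and 3.63 FPKM untreated. All IFN-γ libraries were high and close together, and the untreated ones held about 160.3 to 263 fragments each, so both levels were measured well above the counting limit. The means were 123 ± 5.05 FPKM with IFN-γ and 4.16 ± 0.612 FPKM untreated (SD, n = 4 each), a ratio of 29.6. Limma gave a log2 change of 4.86 (SE 0.09, adjusted p = 4.9e-11), which moved little with the pseudocount, at 4.59 for a pseudocount of 1 and 4.89 for 0.01. APOL2 passed the filter in both groups by itself.

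APOL3, the detergent-like antibacterial member, had 24.1, 23.1, 24.7 and 24.5 FPKM with IFN-γ. In untreated cells it was listed at 0 in replicates 2, 3 and 4 and at 0.0296 FPKM in replicate 1, about 1.78 fragments by its longest coding transcript. Its IFN-γ libraries agreed closely, at 24.1 ± 0.694 FPKM, and none came near the untreated ones. The change was 7.82 on the log2(FPKM + 0.1) scale (SE 0.12, limma adjusted p = 1.4e-11).

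APOL4 had 67.6, 68.1, 65.2 and 67.8 FPKM with IFN-γ and 0.0524, 0.0630, 0.0187 and 0.0925 FPKM untreated. The untreated values were low but above 0 in all 4 libraries, for about 1.06 to 5.21 fragments each. The mean was 67.2 ± 1.35 FPKM with IFN-γ and 0.0566 ± 0.0305 FPKM untreated, and the ratio of 1187 rests on about 13.5 untreated fragments in all. Limma put the log2 change at 8.77 (SE 0.13, adjusted p = 1.1e-11).

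APOL6, an intracellular member that carries a BH3-like segment and promotes cell death when overexpressed, had 80.5, 82.6, 80.6 and 69.4 FPKM with IFN-γ. Its untreated values were 0.0279, 0.00473, 0.0392 and 0.0333 FPKM. Its transcript is longer than that of APOL4, and these values correspond to roughly 0.937 to 6.58 fragments in a library. The mean was 78.3 ± 5.98 FPKM with IFN-γ and 0.0263 ± 0.0151 FPKM untreated, with a log2 change of 9.28 (SE 0.11, limma adjusted p = 1.8e-12). The ratio of the means, 2978, rests on about 17.7 untreated fragments in all.

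APOL5 had 0.0414, 0.164, 0.0929 and 0 FPKM with IFN-γ and 0.141, 0.119, 0.0944 and 0 FPKM untreated. The groups overlapped, and no library held more than about 3.35 fragments. It lay below the filter and was tested by the exact two-sided permutation test alone, which gave a difference of -0.13 on the log2(FPKM + 0.1) scale (p = 0.771). A change was not detectable at this depth, although the gene lies between APOL6 and APOL3, which both rose. The same exact permutation test returned p = 0.0286 for each of the 5 called members, which is the lowest value that the 70 arrangements of 4 against 4 allow.

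**Figure D2:**
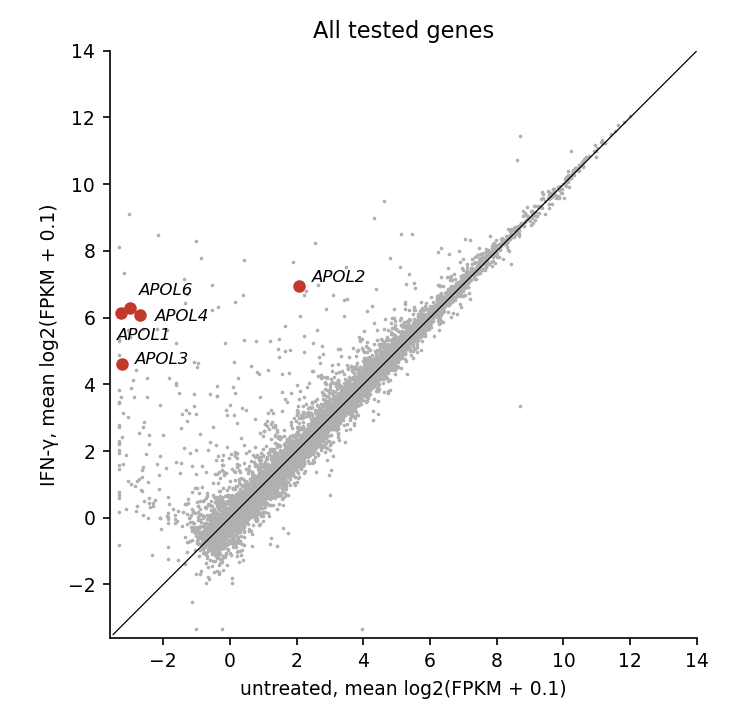
Mean log2(FPKM + 0.1) with IFN-γ (vertical axis) against untreated cells (horizontal axis) for the 13598 tested genes in grey and the 5 tested apolipoprotein L genes in red; the line marks equal levels. APOL1, APOL3, APOL4 and APOL6 sit at the left edge, where untreated levels are near 0, and APOL2 sits apart at an untreated mean of 4.16 FPKM.

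Among the 13598 tested genes, ranked by log2 change, APOL1 was 5th from the top, APOL6 was 7th, APOL4 8th, APOL3 22nd and APOL2 71st. These places describe the log2(FPKM + 0.1) scale and shift with the pseudocount. At a pseudocount of 1 the places were 12 for APOL1, 11 for APOL6, 14 for APOL4, 32 for APOL3 and 35 for APOL2, and there APOL3 (4.64) and APOL2 (4.59) changed by nearly the same amount. In difference of mean FPKM the order was another: APOL2 gained 119 FPKM, APOL6 78.2, APOL1 70.1, APOL4 67.1 and APOL3 24.1. So the member with the smallest relative change gained the most FPKM.

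By level with IFN-γ, which FPKM allows to be compared between genes per length, the order was APOL2, APOL6, APOL1, APOL4, APOL3 and APOL5. APOL2 lay above APOL6 with no overlap between their libraries, and likewise APOL4 above APOL3 and APOL3 above APOL5. APOL6 and APOL1 overlapped in range over the libraries, but APOL6 was the higher of the pair within each of the 4, and both were lowest in replicate 4. APOL1 and APOL4 also overlapped, and APOL1 was the higher in 3 of 4 libraries, so the places of these 2 do not differ beyond the spread. In untreated cells APOL2 lay above all other members with no overlap, and the ranges of the remaining 5 overlapped in turn, at 0 to 0.141 FPKM. Among all tested genes the treated level of APOL2 was 530th, that of APOL6 822nd, that of APOL1 942nd, that of APOL4 994th and that of APOL3 3170th, while the untreated level of APOL2 was 9404th.

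The summed FPKM of the 6 genes was 374, 361, 372 and 343 in the IFN-γ libraries and 4.42, 5.21, 3.96 and 3.76 in the untreated ones. The means were 363 ± 14.1 FPKM with IFN-γ and 4.34 ± 0.647 FPKM untreated, a ratio of 83.6, which is a description with no test. The make-up of the sum differed too. APOL2 held 33.9 ± 1.12% of it with IFN-γ and 95.8 ± 1.01% untreated (SD, n = 4 each). APOL6 held 21.6 ± 1.10% with IFN-γ, APOL1 19.3 ± 1.09%, APOL4 18.6 ± 0.975% and APOL3 6.65 ± 0.342%, and each of these 4 was at most 2.46% in any untreated library.

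**Figure D3:**
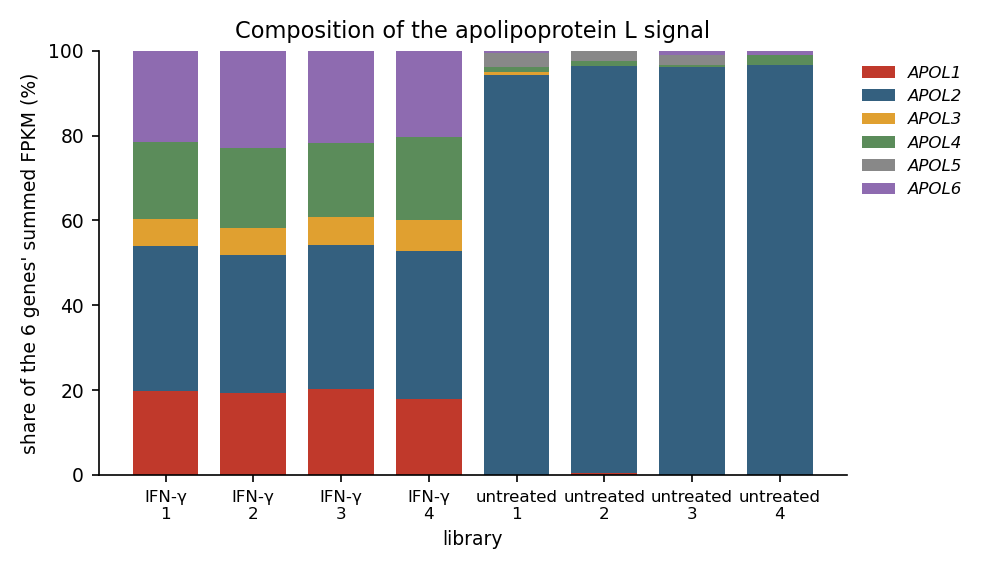
Share of each gene in the summed FPKM of the 6 apolipoprotein L genes (%), 1 stacked bar per library, 4 IFN-γ libraries on the left and 4 untreated on the right. APOL2 makes up 94.3 to 96.7% of the untreated bars and 32.4 to 35.1% of the IFN-γ bars.

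The IFN-γ libraries differed among themselves in some members more than in others. The coefficient of variation with IFN-γ was 9.29% for APOL1, 7.65% for APOL6, 4.11% for APOL2, 2.88% for APOL3 and 2.01% for APOL4. Replicate 4 held the spread of the first pair of these: APOL1 was 0.26 and APOL6 0.23 (log2) below the mean of the other 3 libraries there, while APOL2, APOL3 and APOL4 deviated by -0.04, 0.03 and 0.02. Without that library APOL1 was at 73.2 ± 2.94 FPKM and APOL6 at 81.2 ± 1.22 FPKM with IFN-γ (SD, n = 3), and their log2 changes were 9.46 and 9.34.

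In replicate 4 the deviation moved with transcript length over all genes of at least 10 FPKM with IFN-γ. The median deviation was 0.29 (log2) for the 1203 genes whose longest transcript is under 2000 nt, 0.11 for 2250 genes of 2000 to 4000 nt, -0.03 for 2184 genes of 4000 to 8000 nt and -0.14 for 629 longer ones. APOL6, at 10121 nt, had a deviation at or above that of 31.3% of its length class. APOL1, at 3000 nt, had one that only 1.91% of genes of its class reached or fell below, whereas APOL2, APOL3 and APOL4, of similar length, stood at 19.5%, 32.6% and 28.8%. The part of library quality in this difference between APOL1 and its neighbours was not tested.

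**Figure D4:**
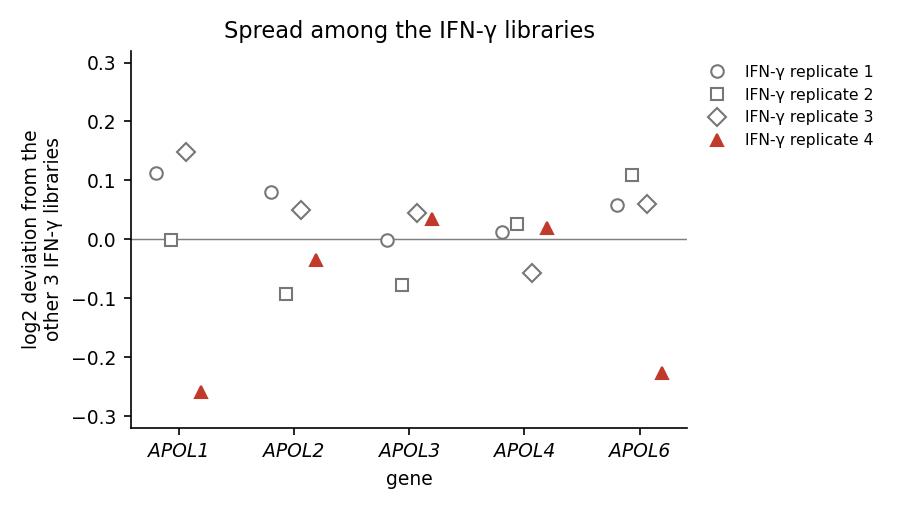
Deviation of each IFN-γ library from the mean of the other 3 on the log2(FPKM + 0.1) scale, for the 5 members with an IFN-γ level above 20 FPKM; replicate 4 is in red. It lies lowest for APOL1 (-0.26) and APOL6 (-0.23) and within the other libraries for APOL2, APOL3 and APOL4.

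No tested gene around the family changed by as much as its called members. Of 16 neighbours listed on both sides of the cluster, 12 passed the filter. None rose and 2 fell by limma at an adjusted p of 0.05, beside 13.3% higher and 9.05% lower over all tested genes, and at an unadjusted p below 0.05 2 were higher and 2 lower. Their median log2 change was -0.01, beside -0.0047 over all tested genes. RBFOX2, a splicing regulator that lies between APOL5 and APOL3, was at 61.3 ± 3.43 FPKM with IFN-γ and 59.5 ± 0.456 FPKM untreated (adjusted p = 0.575), and without IFN-γ replicate 4 it was called higher by 0.08 on the log2 scale (adjusted p = 0.0173). MYH9, a non-muscle myosin heavy chain gene next to APOL1, was at 34 ± 3.45 FPKM with IFN-γ and 35 ± 1.33 FPKM untreated (adjusted p = 0.709). MB, the myoglobin gene whose annotated start lies 10.4 kb before that of APOL6, was below the filter at 0.156 ± 0.0927 FPKM with IFN-γ and 0.0598 ± 0.0859 FPKM untreated.

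The 2 falls among the neighbours were small, and their sign depends on the scaling: as TPM, which moved the median of all genes by 0.79, MCM5 changed by 0.56 and FOXRED2 by 0.50 on the log2 scale and neither passed (adjusted p = 0.0934 and 0.132). In TPM, where 9536 genes of the whole table passed as higher, HMGXB4, TOM1, RASD2, RBFOX2, MYH9, TXN2, EIF3D, CACNG2 and IFT27 did so too, with log2 changes of 0.73 to 1.52. MCM5, a subunit of the replicative helicase, fell to 33.1 ± 1.23 FPKM with IFN-γ, against 39.2 ± 1.05 FPKM untreated (log2 change -0.24, adjusted p = 0.00142). FOXRED2, an endoplasmic reticulum flavoprotein gene, fell to 15.7 ± 1.80 FPKM with IFN-γ, against 19.3 ± 0.630 FPKM untreated (adjusted p = 0.0189), and missed the threshold without untreated replicate 1, 2 or 3 (adjusted p = 0.0551, 0.0504 and 0.0514). Of the rest, HMGXB4, TOM1, HMOX1, RASD2, TXN2, EIF3D, CACNG2 and IFT27 did not pass the test, with log2 changes of -0.30 to 0.79. Without IFN-γ replicate 4, CACNG2 passed as higher by 0.38 and EIF3D as lower at -0.10, and without IFN-γ replicate 1 RASD2 passed as higher by 0.97. PVALB and NCF4 were at most 0.281 and 0.0821 FPKM in any library and CSF2RB was listed at 0 in all 8.

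**Figure D5:**
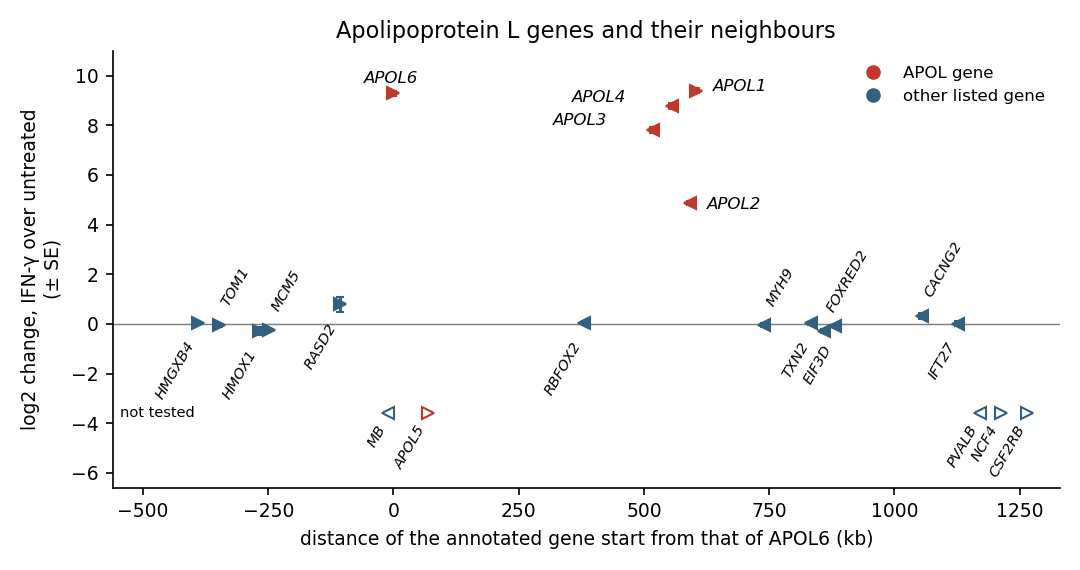
Log2 change (IFN-γ over untreated, ± SE, limma) against the distance of each annotated gene start from that of APOL6 in kb; arrowheads point along the strand, red marks apolipoprotein L genes, blue marks the listed neighbours, and open symbols are genes below the filter. APOL1, APOL2, APOL3, APOL4 and APOL6 stand at 4.86 to 9.39, and the 12 tested neighbours lie between -0.30 and 0.79.

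Outside the cluster, APOLD1 and most of the listed genes of other apolipoproteins were either not called or below the filter. APOLD1, an endothelial apolipoprotein L domain gene on another chromosome, was at 2.77 ± 0.244 FPKM with IFN-γ and 2.87 ± 0.287 FPKM untreated (limma adjusted p = 0.778). Of 18 other apolipoprotein genes 6 passed the filter, 1 rose and none fell (at an unadjusted p below 0.05, 1 higher and 0 lower), beside 13.3% of all tested genes higher. The riser was CLU, the extracellular chaperone clusterin, at 22.1 ± 2.75 FPKM with IFN-γ and 11.7 ± 0.493 FPKM untreated (log2 change 0.91, adjusted p = 1.9e-05). APOO, a mitochondrial cristae protein gene, was at 14.2 ± 1.71 FPKM with IFN-γ and 12.6 ± 0.852 FPKM untreated (adjusted p = 0.199). APOF, below the filter, was at 0.321 ± 0.156 FPKM with IFN-γ and 0.0564 ± 0.0506 FPKM untreated, with 4 of 4 IFN-γ libraries above all untreated ones (exact two-sided permutation p = 0.0286, not adjusted over the list). 6 of the 18, APOA2, APOA4, APOC3, APOC4, APOH and LPA, were listed at 0 in all 8 libraries.

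Among 9 genes listed for the trypanosome lytic complex and for Golgi partners of the family, 5 were tested, 1 rose and none fell. At an unadjusted p below 0.05, 1 was higher and 1 lower. Over all tested genes 13.3% were called higher and 9.05% lower, so the count does not set these genes apart. The gene called was NCS1, the neuronal calcium sensor that binds APOL3 at the Golgi, at 57.4 ± 3.72 FPKM with IFN-γ and 40.8 ± 0.712 FPKM untreated (log2 change 0.49, limma adjusted p = 4.6e-05). PI4KB, the Golgi lipid kinase that NCS1 activates, was at 20.4 ± 0.861 FPKM with IFN-γ and 19.4 ± 0.170 FPKM untreated and did not pass (adjusted p = 0.237), nor did ARF1 at 216 ± 10.2 FPKM with IFN-γ and 208 ± 3.90 FPKM untreated. HPR, the haptoglobin-related gene whose protein joins APOL1 in the blood-borne trypanosome lytic particle, was below the filter, as was the haptoglobin gene HP. Both were at no more than 0.619 FPKM in any library.

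Of the IFN-γ signalling genes, 11 of 13 tested receptor, kinase and transcription factor genes were higher and none lower (unadjusted p below 0.05, 11 higher and 0 lower), beside 13.3% of all tested genes higher. Those not called were both receptor genes, IFNGR1 at 20.8 ± 1.73 FPKM with IFN-γ and 19.2 ± 0.910 FPKM untreated (adjusted p = 0.251) and IFNGR2 at 18.6 ± 0.966 FPKM with IFN-γ and 18.3 ± 1.37 FPKM untreated (adjusted p = 0.835). IRF1, a transcription factor of interferon target promoters, was at 125 ± 2.14 FPKM with IFN-γ and 0.584 ± 0.0404 FPKM untreated, and CIITA, the class II transactivator, was at 14.9 ± 2.27 FPKM with IFN-γ and 0.0293 FPKM untreated. BATF2 was at 12.3 FPKM with IFN-γ and 0.0395 FPKM untreated. Both BATF2 and CIITA passed the filter through the IFN-γ group alone, so their calls within the 11 are no evidence about the signalling list. Of 11 other genes of cell-autonomous defence, 7 passed the filter and were called higher, but GBP1, GBP2, GBP3, GBP4, GBP5 and MX2 passed it through the IFN-γ group alone, so that count is no evidence about the list. RNF213, a large ubiquitin ligase, passed in both groups, at 37.6 ± 5.20 FPKM with IFN-γ and 5.51 ± 0.0689 FPKM untreated (log2 change 2.74, limma adjusted p = 6.1e-09). GBP1, the guanylate-binding GTPase that coats bacteria in the cytosol before APOL3 acts, was at 546 ± 15.5 FPKM with IFN-γ and 0.0240 ± 0.0106 FPKM untreated. GBP2 was at 314 ± 7.67 FPKM with IFN-γ and 0.402 FPKM untreated, and GBP4 and GBP5, of the same family, also rose. MX2, an interferon-induced dynamin-like GTPase, reached 2.04 ± 0.250 FPKM with IFN-γ.

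The genes with the profile most like each member were sought by the Euclidean distance of log2(FPKM + 0.1) over the 8 libraries, in which both the treated and the untreated level count. GBP4 was the closest gene outside the family to APOL1 (distance 1.34) and to APOL6 (1.70), and the second closest to APOL4 (1.33) after IFI44 (1.03). It was at 46.1 ± 2.67 FPKM with IFN-γ. For APOL3 the closest were FAM155A (0.396) and GBP5 (0.418). FAM155A ranged over 24.4 to 25.7 FPKM and GBP5 over 22.4 to 24.9 FPKM with IFN-γ, and both were listed at 0 in all untreated libraries. APOL2 was closest to IL18BP (0.750), the interleukin-18 inhibitor gene, which was at 103 ± 3.06 FPKM with IFN-γ and 4.58 ± 0.277 FPKM untreated, and then to IFI6 (0.919). Within the family APOL1 and APOL6 were the closest pair (0.819), followed by APOL4 and APOL6 (1.02), while APOL2 lay at least 9.73 from every other tested member. All these distances hold for the pseudocount of 0.1. Untreated APOL1, APOL3, APOL4 and APOL6 rest on at most about 6.58 fragments per library, so the order of their neighbours may shift with the pseudocount.

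Endothelial, macrophage and lymphoid markers were low, each at no more than 1.12 FPKM in any library, and fibroblast markers were mixed. The 7 endothelial markers summed to 0.295 to 0.529 FPKM with IFN-γ and 0.569 to 0.702 FPKM untreated, with PECAM1 at 0 in every IFN-γ library. CLDN5 was the highest of them, at 0.300 ± 0.132 FPKM with IFN-γ and 0.477 ± 0.0836 FPKM untreated. The 10 macrophage and microglia markers summed to 0.636 to 1.21 FPKM with IFN-γ and 0.567 to 0.635 FPKM untreated, with C1QA, C1QC and CD163 at 0 in all 8 libraries. The highest there was CD14, at 0.429 ± 0.0713 FPKM with IFN-γ and 0.355 ± 0.168 FPKM untreated. Of 7 T and NK cell markers in the table, CD3D, CD3E, CD2 and GZMB were at 0 in all 8, and the sum was 0.312 to 0.724 FPKM with IFN-γ and 0.704 to 1.12 FPKM untreated. Most of that sum was CD8A, at 0.551 ± 0.182 FPKM with IFN-γ and 0.801 ± 0.226 FPKM untreated. CD8A passed the filter and was not called (limma adjusted p = 0.224). The 6 fibroblast markers summed to 184 to 239 FPKM with IFN-γ and 166 to 176 FPKM untreated. Most of this sum was DCN, at 143 ± 22.3 FPKM with IFN-γ and 140 ± 4.40 FPKM untreated, with 177 FPKM in IFN-γ replicate 4. COL3A1 and COL1A2 were below the filter, at means of 0.284 and 0.0115 FPKM with IFN-γ and 0.0995 and 0 FPKM untreated. PDGFRB in that list rose, at 21 ± 1.52 FPKM with IFN-γ and 8.20 ± 0.442 FPKM untreated (log2 change 1.35, limma adjusted p = 9.5e-08), and LUM rose as well, while COL1A1 fell. The part of this marker change in the levels of the family was not tested.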

How the data were processed

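RNA-seq values of 8 libraries of 1 cell line were used, 4 with IFN-γ and 4 untreated, grouped by the treatment in the labels. The deposited table holds FPKM, made by the authors with TopHat2 and Cuffdiff on hg38 per the submitters' processing notes. Their versions, options, annotation and scaling between libraries are not stated in the sources at hand, and could move low values most. No count model was used.

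Log2(FPKM + 0.1) values of genes averaging 0.5 FPKM or more were fitted with limma 3.58.1 (R 4.3.3, two-sided, mean-variance trend), and Benjamini-Hochberg adjusted p-values were called at 0.05. The fit was tested on simulated data with normal noise, no floor at 0 and changes smaller than those of the called members. That run therefore does not cover members with untreated values near 0. Exact permutation tests used scipy 1.17.1. Named genes were the 6 members, APOLD1, the 22q12 neighbours, up to 4 called genes of each other list by size of change (or up to 2 of the highest), and the 3 genes nearest each member in profile; PI4KB, MX2, HP, HPR, APOF, IFNGR1, IFNGR2, RNF213 and the cell markers were picked after their values were seen. Not every gene taken in by these choices is reported here. The members and lists were chosen with earlier results of these data known.

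The worth of 1 fragment came from single-transcript genes of GENCODE release 29, and the fragments behind a member from its longest coding transcript, so both are approximate and cover counting error only. Every pair of replicates differed beyond sampling noise. The alternatives changed the pseudocount (1 or 0.01), the filter (none or 1 FPKM), the scaling (median of ratios, quantiles, TPM with or without short RNA genes), the variance model, the replicate block, or left out a library.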

Additional observations from a re-analysis of the deposited data

Results flagged for a closer look

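4 of 14 groups of 4 values, over the 6 genes and their sum, had 1 library whose gap to its nearest neighbour exceeded Dixon's critical share of the group's range, a rule by which chance marks about 1 group in 20. For APOL6 with IFN-γ the ratio was 0.838, with replicate 4 at 69.4 FPKM and the other libraries at 80.5 to 82.6 FPKM. For APOL4 with IFN-γ it was 0.839, with replicate 3 at 65.2 FPKM and the others at 67.6 to 68.1 FPKM, a range of less than 3 FPKM. In untreated cells APOL1 and APOL3 each had a ratio of 1, since a single library held the only signal, at 0.0183 and 0.0296 FPKM, and the other 3 were listed at 0.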

How the results depend on the processing

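For the 5 tested members, 95 of 95 combinations of member and alternative kept direction and call, with a lowest log2 change of 4.59 and a highest limma adjusted p of 3.9e-08. APOL1, APOL3, APOL4 and APOL6 passed the filter through the IFN-γ group alone, so their kept calls are no evidence about the family. The size of their log2 changes was not stable. It ranged over 6.14 to 12.4 for APOL1, 4.64 to 10.7 for APOL3, 6.01 to 10.1 for APOL4 and 6.27 to 11.2 for APOL6. APOL2 ranged over 4.59 to 5.66. Depth limits APOL5, whose difference has no stable sign: it was 0.18 in TPM, and leaving out 1 library gave -0.41 to 0.11. In TPM 9555 genes were called and the summed level rose by 7.15 on the log2 scale, with the median gene up by 0.79, and there APOLD1 (0.73), TOM1 (0.74), HMOX1 (0.40), MCM5 (0.56), MYH9 (0.76), FOXRED2 (0.50) and EIF3D (0.73) turned positive. After quantile normalization HMGXB4 (-0.0052), RBFOX2 (-0.073), TXN2 (-0.064), IFT27 (-0.038) and ARF1 (-0.093) turned negative, as they did in TPM without short RNA genes (-0.042 for HMGXB4, -0.052 for RBFOX2, -0.061 for TXN2, -0.077 for IFT27 and -0.033 for ARF1). Leaving out 1 library, the log2 change ranged over -0.11 to 0.013 for APOLD1, -0.074 to 0.033 for MYH9, -0.0039 to 0.068 for TXN2 and -0.092 to 0.064 for IFT27. The cause of these turns was not tested.

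With the replicate block 2656 genes were called, against 3039 without it, and all 5 tested members kept their call (adjusted p 4.9e-09 to 3.1e-08). Libraries of the same number correlated at -0.0275 to 0.0790, and those of different numbers at -0.0935 to 0.0862. Of 8 libraries 5 correlated best with their own number, which does not settle whether the numbers pair the samples. The main fit treated the libraries as unpaired. Leaving out 1 library gave 2336 to 3855 called genes, the highest without IFN-γ replicate 4.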
